A study of Mus musculus with 6 samples.

Results

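Long noncoding RNAs expressed in mouse ovarian granulosa cells were described in 3 libraries of cells exposed to cyclophosphamide and 3 libraries of untreated cells. The members were the rows of the deposited expression table whose biotype is lincRNA, antisense, processed_transcript or bidirectional_promoter_lncRNA and whose mean over the 6 libraries was 2 FPKM or more (fragments per kilobase of gene length, scaled to library size). Of 9331 rows with a long noncoding biotype, among 54532 in the table, 196 reached that mean. The rule leaves out Gas5, the Snhg genes and a set of imprinted transcripts by name, which removed 14. The 182 that remained were 69 lincRNA, 65 antisense, 39 processed_transcript and 9 bidirectional_promoter_lncRNA. The members were thus chosen by their mean FPKM, and the levels are given as a description. Just inside the threshold lay Gm26935 with a mean of 2.01 FPKM and B230206L02Rik with 2.01 FPKM, and just outside it 2900093K20Rik with 2.00 FPKM and Gm44199 with 1.98 FPKM.

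Granulosa cells surround the oocyte, make estradiol and inhibin, and are a target of alkylating chemotherapy, of which cyclophosphamide is a widely used agent. The cyclophosphamide libraries came from wild-type cells kept for 2 days as an adherent culture in DMEM/F12 with 10% fetal bovine serum and then given the drug for 24 h, and the untreated libraries from wild-type cells of the same culture type without it. The labels disagree on the route: the treatment tag of the exposed samples gives an intraperitoneal injection, but the protocol adds the drug to the culture, as does the design text. The cells stand under a cell line tag, without a named line. No label ties a replicate to a culture or animal of its own, so the p-values below carry the spread of these 6 samples alone, and that spread may be technical.

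Long noncoding RNAs are transcripts with no recognised protein product. Some act as scaffolds in the nucleus, as Neat1 does for paraspeckles and Xist for the silent X chromosome, some bind proteins or microRNAs in the cytoplasm, and some are carriers whose introns or exons hold small nucleolar RNAs (snoRNAs) or microRNAs. Many others are made where RNA polymerase starts in both directions from a coding gene's promoter, or lie antisense within a coding gene, and are degraded quickly by the nuclear RNA exosome.

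The libraries held 16458385 to 17607586 reads in genes, and the members took 0.617% to 0.795% of them. Of 14 granulosa markers, 12 were measured well enough to test, and 2 were higher and 10 lower in cyclophosphamide libraries. Their summed level was 1111 to 1414 FPKM in cyclophosphamide libraries and 2864 to 3041 FPKM in untreated libraries. The aromatase gene Cyp19a1 and Amh, both defining granulosa genes, were too low to test in either group. The summed markers of other ovarian cells were 11.6 to 15.5 FPKM in cyclophosphamide and 7.60 to 8.58 FPKM in untreated libraries for macrophages (4 of 10 listed genes tested, 3 higher, 1 lower). For surface epithelium they were 49.9 to 73.2 FPKM in cyclophosphamide and 106 to 120 FPKM in untreated libraries (0 of 6 higher, 5 lower). For smooth muscle they were 15.8 to 26.3 FPKM in cyclophosphamide and 89.9 to 101 FPKM in untreated libraries (2 of 8 higher, 5 lower), and for theca and stroma 7.89 to 9.35 FPKM in cyclophosphamide and 25.4 to 31.1 FPKM in untreated libraries (0 of 4 higher, 2 lower). For endothelium they were 2.08 to 2.67 FPKM in cyclophosphamide and 0.756 to 1.0 FPKM in untreated libraries (3 of 6 listed genes tested, 1 higher, 0 lower). The gene that rose was Esam, at 1.67, 1.73 and 2.00 FPKM in cyclophosphamide libraries, against 0.235, 0.260 and 0.289 FPKM in untreated libraries. Tek and Cdh5 had differences of -0.64 and -0.32 without a call. For oocytes the summed markers were 3.12 to 4.01 FPKM in cyclophosphamide and 0.670 to 0.908 FPKM in untreated libraries (2 of 9 listed genes tested, 2 higher). No gene on these marker lists was at 0 in all 6 libraries. Whether a change in cell makeup takes part in the results below was not tested, and in bulk RNA fewer cells of a type and less RNA per cell cannot be told apart.

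After cyclophosphamide, long noncoding RNAs moved in both directions and some by a large factor. Differences are given as cyclophosphamide minus untreated on the log2(FPKM + 0.1) scale, with the standard error (SE) and n = 3 libraries in each group, and a gene is called when its limma p-value, adjusted by Benjamini-Hochberg over all 14755 genes tested, is under 0.05. All 182 members were tested, and 119 were called, or 65.4%: 65 (35.7%) were higher and 54 (29.7%) lower in cyclophosphamide libraries. Over all genes tested 69.3% were called, 33.3% higher and 36% lower, so that the members' count was near that background. It was below the 73.6% of protein-coding genes at a mean of 2 FPKM or more. The 3 values of each group did not overlap for 123 members, or 67.6%, against 73.4% of all genes tested and 77.9% of those protein-coding genes. The median difference was 0.11 over the members and -0.02 over all genes tested.

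Large changes took a higher share of the members than of all genes, which is given as a description without a test. Called changes of 2-fold or more were found for 33 members that were higher and 33 that were lower, together 36.3% of members, against 26.6% of all genes tested and 21.2% of protein-coding genes at a mean of 2 FPKM or more. Changes of 4-fold or more were called for 11 members that were higher and 13 that were lower, 13.2% of members against 6.09% of all genes tested. The members' standard errors were also wider, with a median of 0.17 against 0.12, and their median total was 581.5 reads over the 6 libraries against 2463. A mean over both groups admits a gene that is high in only 1 of them: 36 of the members called higher averaged under 2 FPKM in untreated libraries, and 22 of those called lower averaged under 2 FPKM in cyclophosphamide libraries. Of the 110 members at 2 FPKM or more in both groups, 29 were called higher and 32 lower. Over all genes tested, without that condition, 33.3% were called higher and 36% lower. Large changes were not counted among these 110 alone.

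**Figure D1:**
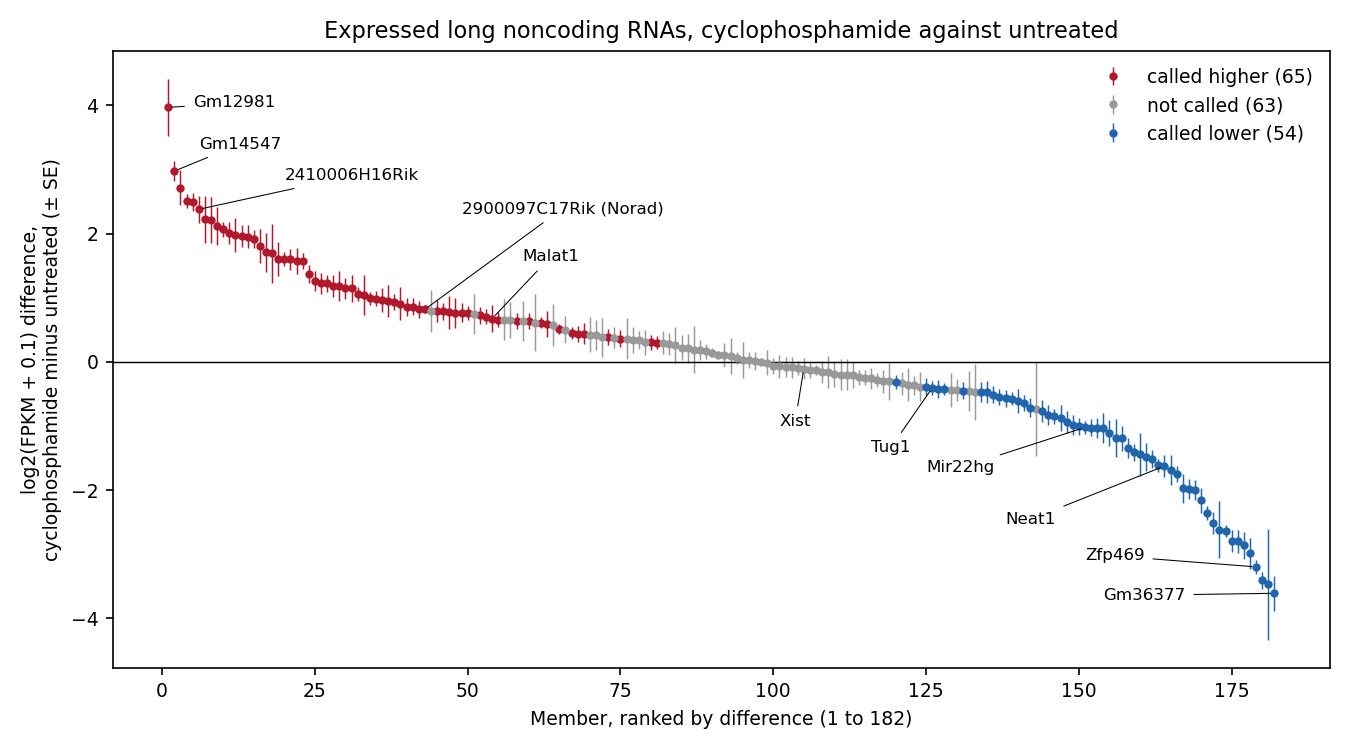
Each of the 182 members is a point at its difference between cyclophosphamide and untreated libraries on the log2(FPKM + 0.1) scale, with bars of 1 SE, ranked along the horizontal axis; red points are called higher (65), grey points are not called (63) and blue points are called lower (54). The differences run between -3.61 for Gm36377 and 3.97 for Gm12981, and Malat1, Xist and Tug1 lie in the shallow middle of the curve.

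Levels were carried by a few transcripts. The 182 members summed to 2036, 2089 and 2165 FPKM in cyclophosphamide libraries and 1927, 1984 and 1835 FPKM in untreated libraries. In all, 3 members averaged 100 FPKM or more, and 30 averaged 10 FPKM or more. Malat1, a nuclear RNA that gathers in splicing speckles, was at 274, 301 and 422 FPKM in cyclophosphamide libraries, against 266, 195 and 165 FPKM in untreated libraries. Its values were higher in every cyclophosphamide library than in any untreated one, but the lowest of the exposed and the highest of the untreated libraries lay close together. The difference was 0.68 ± 0.21 (adjusted p = 0.021), and the call was lost without cyclophosphamide replicate 3 (adjusted p = 0.066), without untreated replicate 2 (adjusted p = 0.063), without untreated replicate 3 (adjusted p = 0.077) and with no filter on low genes (adjusted p = 0.062). The call was also lost with the replicate number as a block (adjusted p = 0.054 in limma). AU020206, an intergenic transcript of 3 exon blocks (chr7:75769038-75782099, minus strand), was at 166, 222 and 194 FPKM in cyclophosphamide libraries, against 346, 326 and 373 FPKM in untreated libraries. It fell in all 3 exposed libraries, by a difference of -0.85 ± 0.12 (adjusted p = 0.00041), and its share of the members' summed FPKM was 8.16%, 10.6% and 8.96% in cyclophosphamide libraries against 17.9%, 16.4% and 20.4% in untreated libraries.

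2410006H16Rik, next in level, holds the snoRNAs Snord49a, Snord49b and Snord65 within its span. It was at 279, 250 and 196 FPKM in cyclophosphamide libraries, against 34.7, 61.1 and 45.6 FPKM in untreated libraries. The groups were far apart, with a difference of 2.38 ± 0.21 (adjusted p = 2.7e-05), a rise of 5.2-fold. Gm26917 was at 99.1, 61.5 and 83.7 FPKM in cyclophosphamide libraries, against 28, 27.6 and 23.5 FPKM in untreated libraries, and it rose as well (1.60 ± 0.16). Its row ends 12 bases before a ribosomal RNA row on the other strand, CT010467.1, which was at 264, 246 and 249 FPKM in cyclophosphamide libraries against 218, 271 and 194 FPKM in untreated libraries and was not called. The part that ribosomal RNA reads have in the Gm26917 value was not tested. Gm10076, which RefSeq lists as a pseudogene, was at 31.2, 21.8 and 53.2 FPKM in cyclophosphamide libraries, against 60.5, 164 and 16.8 FPKM in untreated libraries, so that its untreated values spread over the whole exposed range and no change was called (adjusted p = 0.39); without untreated replicate 3 it was called lower (-1.59, adjusted p = 0.023). AI506816 was at 49.5, 47.8 and 47 FPKM in cyclophosphamide libraries, against 44.4, 43.9 and 45 FPKM in untreated libraries, with no call (adjusted p = 0.097) although the groups did not overlap. It was called higher, at adjusted p = 0.020 and 0.0089, when the libraries were rescaled by total reads and by the upper quartile.

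Neat1, the RNA scaffold of paraspeckles, was at 1.53, 1.98 and 2.49 FPKM in cyclophosphamide libraries, against 5.65, 7.02 and 6.17 FPKM in untreated libraries. It was lower in all 3 exposed libraries, with a difference of -1.62 ± 0.18 (adjusted p = 8.9e-05) and no overlap between the groups. The libraries were selected for polyadenylated RNA, and which forms of Neat1 this value reports was not tested. How that selection bears on the Malat1 values was not tested either. Malat1 and Neat1 are neighbours on chromosome 19 and went in opposite directions in these libraries. Genes of proteins found in paraspeckles were mostly lower too. Of 14 tested, 3 were higher and 9 lower, with a median difference of -0.48 against -0.02 over all genes tested. Of all genes tested, 33.3% were called higher and 36% lower. Among the core proteins that bind Neat1, Sfpq was at 30.5, 30.7 and 32.8 FPKM in cyclophosphamide libraries, against 93.5, 89.7 and 92.4 FPKM in untreated libraries, with a difference of -1.55 ± 0.06. Pspc1 was at 1.92, 1.65 and 2.14 FPKM in cyclophosphamide libraries, against 8.42, 8.32 and 8.33 FPKM in untreated libraries, a difference of -2.08 ± 0.11. Neither gene's groups overlapped. Nono, their dimer partner, fell as well, at 77.3, 70.0 and 71.6 FPKM in cyclophosphamide libraries, against 97, 92.2 and 91.4 FPKM in untreated libraries (-0.36 ± 0.07). Rbm14, which joins paraspeckles and is needed to form them, had a difference of -1.09 ± 0.06. The 3 that rose were Taf15 with 1.20 ± 0.11, Dazap1 with 0.74 ± 0.09 and Cpsf6 with 0.48 ± 0.06.

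2900097C17Rik is the transcript that RefSeq names Norad, a cytoplasmic RNA that binds Pumilio proteins and was found in human cells as induced by DNA damage. It was at 64.9, 68.2 and 66.6 FPKM in cyclophosphamide libraries, against 36.1, 37.4 and 39.7 FPKM in untreated libraries. The groups were well apart, with a difference of 0.82 ± 0.06 (adjusted p = 1.3e-05). Pum2, which encodes a Pumilio protein, rose, with 0.56 ± 0.07 (adjusted p = 0.00016).

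Xist, which coats the inactive X chromosome, was at 35.7, 52.8 and 50.4 FPKM in cyclophosphamide libraries, against 57.8, 44.5 and 45.9 FPKM in untreated libraries. The groups overlapped and the difference was -0.10 ± 0.16 (adjusted p = 0.58), with a sign that turned when cyclophosphamide replicate 1 or untreated replicate 1 was left out. Of 10 genes of proteins that act with Xist, 4 were higher and 2 lower, where 33.3% of all genes tested were called higher and 36% lower. Spen, the silencing protein that Xist recruits, had a difference of 0.95 ± 0.07. Rbm15, an adaptor of RNA methylation, had 1.33 ± 0.06, and Hnrnpu, which tethers Xist to chromatin, -0.63 ± 0.05. Firre, another X-linked nuclear RNA, was at 2.92, 4.46 and 3.76 FPKM in cyclophosphamide libraries, against 5.97, 6.17 and 6.1 FPKM in untreated libraries. It was lower in all 3 exposed libraries, with a difference of -0.72 ± 0.15 (adjusted p = 0.0028).

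1700020I14Rik, which RefSeq names Oip5os1 and which is known as Cyrano, binds the microRNA miR-7 and directs its decay. It was at 11.1, 16.3 and 13.3 FPKM in cyclophosphamide libraries, against 26.9, 25.3 and 28.7 FPKM in untreated libraries. It fell by 2.01-fold, with every exposed value below every untreated one (-1.01 ± 0.13, adjusted p = 0.00023). Tug1 was at 11.2, 14.3 and 13.8 FPKM in cyclophosphamide libraries, against 18.4, 15.9 and 17.8 FPKM in untreated libraries. Its fall was small, -0.41 ± 0.11 (adjusted p = 0.0097), with no overlap between the groups. Pvt1, the long transcript downstream of Myc, was at 4.83, 3.71 and 4.25 FPKM in cyclophosphamide libraries, against 2.24, 2.31 and 1.99 FPKM in untreated libraries. It rose by 0.93 ± 0.13 (adjusted p = 0.00035). Dancr was at 3.13, 3.57 and 3.23 FPKM in cyclophosphamide libraries, against 3.7, 4.39 and 3.76 FPKM in untreated libraries. These values lay lower in the 3 exposed libraries but gave no call (-0.25 ± 0.11, adjusted p = 0.082). 2810468N07Rik, the transcript that RefSeq names Cerox1, raises transcripts of mitochondrial complex I subunits in mouse neural cells. It was at 1.26, 1.53 and 1.72 FPKM in cyclophosphamide libraries, against 2.72, 3.44 and 3.33 FPKM in untreated libraries, with a difference of -1.03 ± 0.16 (adjusted p = 0.00054). Of the well studied long noncoding RNAs among the members, Malat1, Norad, Epb41l4aos and Pvt1 were thus called higher, Neat1, Cyrano, Mir22hg, Tug1, Firre and Cerox1 lower, and Xist and Dancr were not called.

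**Figure D2:**
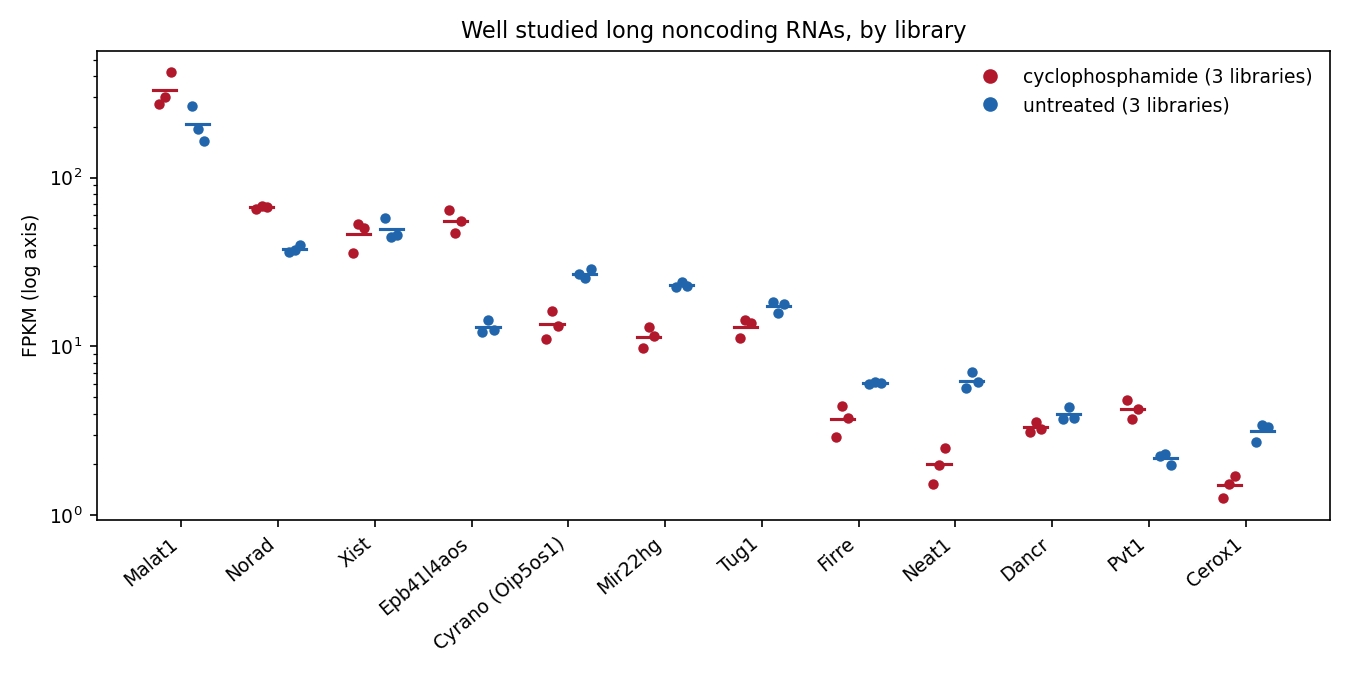
FPKM on a log axis for the 12 well studied members, with 1 point for each of 3 cyclophosphamide libraries (red, left) and 3 untreated libraries (blue, right), and a line at each group's mean. The groups overlap only for Xist; Malat1 and Dancr are apart by the narrowest gaps, and Epb41l4aos and Neat1 by the widest.

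The largest rise was that of Gm12981 (chr4:132503561-132509649, minus strand), at 4.78, 4.93 and 6.61 FPKM in cyclophosphamide libraries, against 0.0984, 0.184 and 0.666 FPKM in untreated libraries. It was near 0 in untreated libraries, and the difference was 3.97 ± 0.45 (adjusted p = 0.00011); with a pseudocount of 1 FPKM in place of 0.1 it was 2.30. Gm12981 lies within Sesn2 on the same strand, sharing no exon base with it. The part of Sesn2 reads in its value was not tested. Sesn2, a stress-induced inhibitor of mTORC1, was at 142, 127 and 136 FPKM in cyclophosphamide libraries, against 18.7, 19.2 and 20.0 FPKM in untreated libraries (2.80 ± 0.07). Gm14286 was at 12.4, 7.09 and 13.8 FPKM in cyclophosphamide libraries, against 1.85, 1.11 and 1.79 FPKM in untreated libraries (2.71 ± 0.28). Gm31793 was at 6.0, 10.2 and 8.79 FPKM in cyclophosphamide libraries, against 0.885, 2.76 and 1.85 FPKM in untreated libraries (2.22 ± 0.37). Neither overlapped between groups, nor did Gm13205 (1.98 ± 0.27) and Gm26724 (2.12 ± 0.30). Gm26724 shares exon bases with a coding gene. AC125351.1, which starts within 10 kb after the end of Map3k9 on the same strand, was at 7.24, 6.05 and 6.8 FPKM in cyclophosphamide libraries, against 0.991, 1.31 and 1.04 FPKM in untreated libraries. Map3k9, a kinase upstream of JNK, rose as well, with 2.07 ± 0.14 beside 2.49 ± 0.14 for AC125351.1.

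The largest fall was that of Gm36377 (chr13:70651005-70655787, minus strand), at 0.321, 0.369 and 0.306 FPKM in cyclophosphamide libraries, against 7.76, 3.41 and 5.16 FPKM in untreated libraries. Its exposed values were all under 0.4 FPKM, and the difference was -3.61 ± 0.27 (adjusted p = 1.3e-05), or -2.22 with a pseudocount of 1 FPKM. Zfp469 was at 1.56, 1.56 and 1.46 FPKM in cyclophosphamide libraries, against 13.1, 16 and 15.4 FPKM in untreated libraries (-3.20 ± 0.10). The table gives this row a noncoding biotype, whereas RefSeq lists Zfp469 as a protein-coding zinc finger gene. Scarletltr was at 1.39, 0.183 and 0 FPKM in cyclophosphamide libraries, against 5.02, 4.88 and 2.13 FPKM in untreated libraries, listed at 0 in 1 exposed library and with the widest error of the falling transcripts (-3.47 ± 0.87, adjusted p = 0.0075). AC131339.2 was at 4.9, 5.17 and 4.76 FPKM in cyclophosphamide libraries, against 33.5, 27.4 and 33.3 FPKM in untreated libraries (-2.64 ± 0.09). AC167229.1 was at 4.23, 3.31 and 3.34 FPKM in cyclophosphamide libraries, against 18.5, 18.4 and 19.8 FPKM in untreated libraries (-2.36 ± 0.11). Both had tight values in each group. 1700016F12Rik was at 13, 2.98 and 7.51 FPKM in cyclophosphamide libraries, against 41.8, 43.8 and 38.1 FPKM in untreated libraries (-2.61 ± 0.44), so that its exposed values varied widely and still lay below every untreated one. The other large falls were those of Gm47547 (-2.99 ± 0.24), E330013P04Rik (-2.86 ± 0.21), Gm4524 (-2.80 ± 0.17) and A530020G20Rik (-2.51 ± 0.17). Gm4524 overlaps P3h2 on the other strand, which fell as well (-1.28 ± 0.11). It shares 49.0% of its exon bases with a coding gene, and the part of P3h2 reads in its value was not tested.

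**Figure D3:**
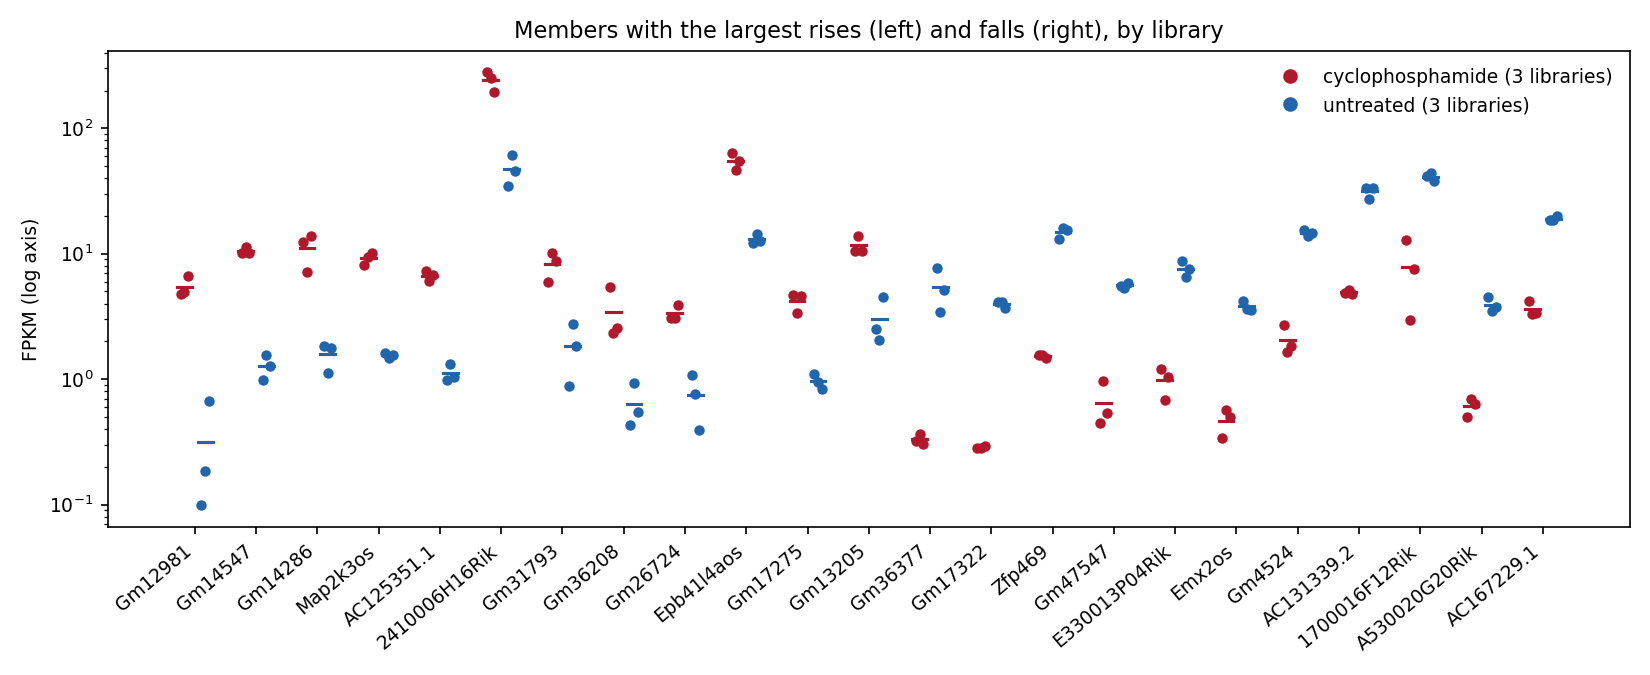
FPKM on a log axis for members with the largest rises (left) and falls (right) among called members whose groups did not overlap, with 3 cyclophosphamide libraries (red, left) and 3 untreated libraries (blue, right) and a line at each mean. Scarletltr is not drawn because 1 of its values is 0; 2410006H16Rik and Epb41l4aos stand out by their level, and most of the others are under 20 FPKM in both groups.

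Members near or inside a coding gene were called in its direction more often than against it. The 135 members with a coding partner overlap it, start within 2 kb of its start in the other direction (divergent), or start within 10 kb after its end on the same strand. In 129 pairs both were tested. Of these, 51 pairs were called in the same direction (29 both higher, 22 both lower) and 12 in opposite directions, and the remaining 66 lacked a call in at least 1 partner. Across pairs the differences had Pearson r = 0.55 and Spearman rho = 0.53. This is a description only, since the pairs share libraries, and 64 of the 129 members share exon bases with a coding gene. In the 65 pairs whose member shares none, 29 were called the same way and 7 opposite ways, with r = 0.50. Only annotated exon bases were compared. The part that reads from a partner's introns or from beyond its end have in these members was not tested. By class, 12 of 28 divergent pairs were called the same way and 0 opposite, 10 and 2 of 17 downstream pairs, 25 and 10 of 76 pairs that overlap on the other strand, and 4 and 0 of 8 pairs that overlap on the same strand. Under upper quartile scaling the opposite pairs were 7 instead of 12. The protocol describes no strand marking, and how the counting treated strand is not stated, so reads of a gene and its antisense partner cannot be told apart where they share bases.

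Several of these pairs involve genes that define granulosa cells. Gm48444 lies antisense within Inhba, the activin and inhibin beta-A subunit, and was at 1.7, 3.02 and 1.72 FPKM in cyclophosphamide libraries, against 10.0, 7.5 and 7.85 FPKM in untreated libraries. It fell with Inhba, which was at 98.6, 85.4 and 87.1 FPKM in cyclophosphamide libraries, against 587, 547 and 589 FPKM in untreated libraries (-1.97 ± 0.23 for Gm48444 and -2.67 ± 0.09 for Inhba). Gm17322, which RefSeq lists as a pseudogene, overlaps Cyp11a1 on the same strand and was at 0.28, 0.283 and 0.294 FPKM in cyclophosphamide libraries, against 4.15, 4.12 and 3.68 FPKM in untreated libraries. Cyp11a1, the enzyme of the committed step from cholesterol to pregnenolone, was at 184, 72.4 and 110 FPKM in cyclophosphamide libraries, against 405, 430 and 437 FPKM in untreated libraries. Both were lower in every exposed library, with -3.40 ± 0.13 for Gm17322 and -1.90 ± 0.29 for Cyp11a1. Gm17322 shares exon bases with a coding gene, and the part that coding reads have in its value was not tested. Foxl2os, antisense to the granulosa factor Foxl2, was at 4.67, 5.27 and 5.55 FPKM in cyclophosphamide libraries, against 7.51, 8.4 and 7.3 FPKM in untreated libraries (-0.58 ± 0.10, adjusted p = 0.0011), and Foxl2 had a difference of -0.45 ± 0.07. Emx2os was at 0.339, 0.566 and 0.496 FPKM in cyclophosphamide libraries, against 4.23, 3.62 and 3.56 FPKM in untreated libraries. It fell together with Emx2, a homeobox gene needed for the gonad and kidney, with -2.80 ± 0.19 for Emx2os and -1.53 ± 0.09 for Emx2. Far1os, within the ether lipid enzyme gene Far1, had a difference of -1.34 ± 0.16 and Far1 one of -1.77 ± 0.08. Far1os shares 7.27% of its exon bases with a coding gene.

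Cald1 gave the clearest opposite pairs. This gene for the actin-binding protein caldesmon was at 58.4, 60.6 and 56.2 FPKM in cyclophosphamide libraries, against 207, 198 and 199 FPKM in untreated libraries, a difference of -1.78 ± 0.07. Inside it and on the other strand lie Gm14547 and Npn2. Gm14547 was at 10.1, 11.3 and 10.1 FPKM in cyclophosphamide libraries, against 0.99, 1.54 and 1.28 FPKM in untreated libraries. Npn2 was at 9.82, 11.9 and 13.5 FPKM in cyclophosphamide libraries, against 3.38, 2.68 and 3.02 FPKM in untreated libraries. Both rose while Cald1 fell, with 2.97 ± 0.16 (adjusted p = 2.6e-06) and 1.91 ± 0.14 (adjusted p = 1.0e-05), and neither shares an exon base with it. Tug1 and its partner Morc2a were another opposite pair, as Morc2a had a difference of 0.77 ± 0.06, and so were Gm17275, which rose by 2.01 ± 0.17, and the histone gene H3f3a, with -0.67 ± 0.07. 1810026B05Rik, the transcript that RefSeq names Chaserr and that restrains its neighbour Chd2 in mice, was at 4.11, 2.83 and 3.4 FPKM in cyclophosphamide libraries, against 2.75, 2.71 and 2.55 FPKM in untreated libraries. It was not called (0.34 ± 0.15, adjusted p = 0.066), while Chd2, a chromatin remodeller, was at 23.8, 24.7 and 25.1 FPKM in cyclophosphamide libraries, against 8.0, 8.46 and 7.35 FPKM in untreated libraries (1.62 ± 0.07).

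**Figure D4:**
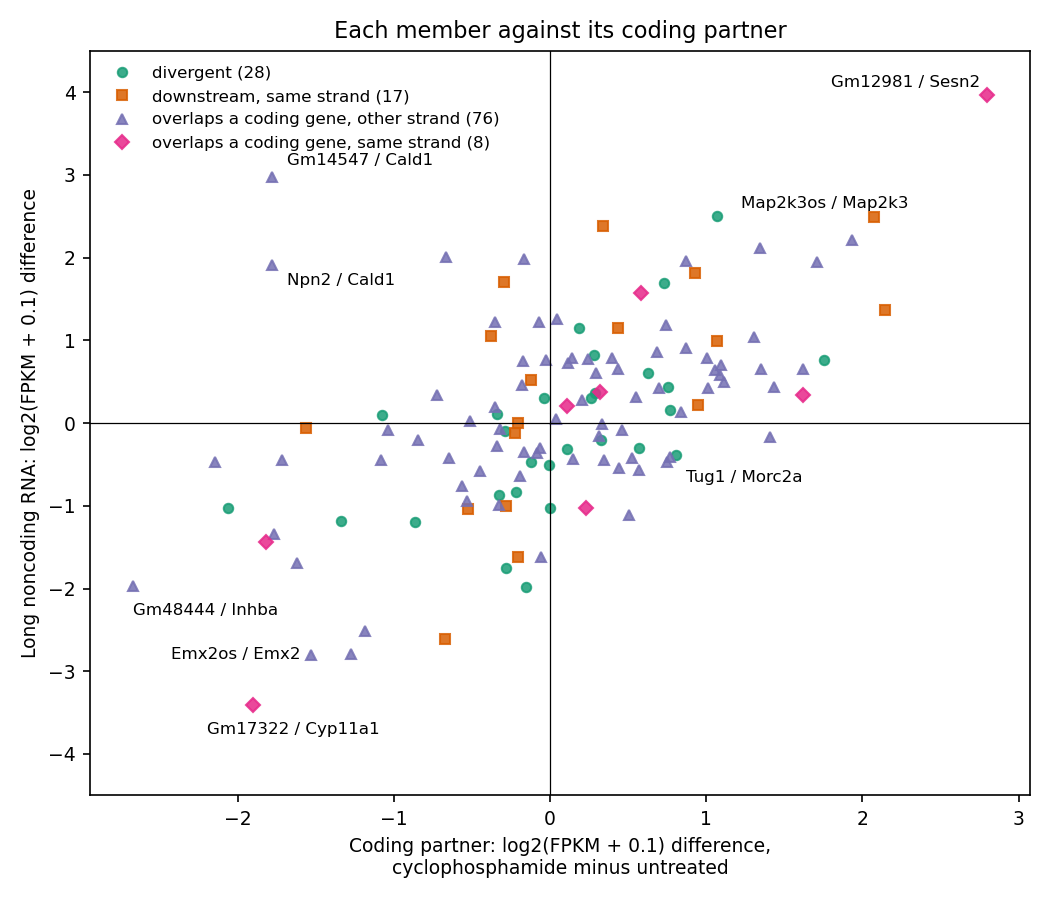
Each of 129 members with a tested coding partner is a point at the partner's difference (horizontal) and its own difference (vertical), both cyclophosphamide minus untreated on the log2(FPKM + 0.1) scale, with symbols for the class of position. Most points lie at the lower left or upper right (r = 0.55), and Gm14547 and Npn2 with Cald1 stand at the upper left.

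Promoter windows are shown for 4 divergent members that moved with their coding neighbour, and for Gm36208, a rising transcript antisense inside Ppm1h. Map2k3os was at 8.19, 9.46 and 10.1 FPKM in cyclophosphamide libraries, against 1.61, 1.46 and 1.56 FPKM in untreated libraries, and Map2k3, a kinase upstream of p38, had every exposed value above every untreated one too. Both rose, by 2.50 ± 0.11 for Map2k3os and 1.07 ± 0.11 for Map2k3. Gm17586 rose by 0.76 ± 0.15 beside Mafg, a small MAF partner of NRF2, with 1.75 ± 0.07. 0610009L18Rik fell by 1.19 on this scale (adjusted p = 0.0009) beside the gamma-actin gene Actg1 (-0.87 ± 0.14), and 2810468N07Rik (Cerox1) fell beside Sox8, a transcription factor of the SOX family (-2.06 ± 0.17). Gm36208 was at 5.38, 2.34 and 2.56 FPKM in cyclophosphamide libraries, against 0.428, 0.935 and 0.552 FPKM in untreated libraries (2.22 ± 0.36), and Ppm1h, a phosphatase gene, had 1.93 ± 0.12. The windows run from 250 bases before to 50 after the RefSeq start on the strand of the noncoding RNA, in build GRCm38.p6, and capitals mark motif letters found on either strand. The motifs shown are CCAAT, the E-box with the letters CACGTG, the antioxidant response element core TGACNNNGC and the AP-1 site TGANTCA. The last pair share letters in the Gm36208 window.
Map2k3os (chr11:60931818-60932117, minus strand): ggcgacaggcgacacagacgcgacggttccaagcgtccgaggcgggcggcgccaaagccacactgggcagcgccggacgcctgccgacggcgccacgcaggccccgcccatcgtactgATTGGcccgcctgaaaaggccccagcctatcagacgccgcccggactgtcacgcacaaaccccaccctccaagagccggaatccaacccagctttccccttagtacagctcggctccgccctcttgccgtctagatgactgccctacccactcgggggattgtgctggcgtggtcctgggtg
Gm17586 (chr11:120633500-120633799, plus strand): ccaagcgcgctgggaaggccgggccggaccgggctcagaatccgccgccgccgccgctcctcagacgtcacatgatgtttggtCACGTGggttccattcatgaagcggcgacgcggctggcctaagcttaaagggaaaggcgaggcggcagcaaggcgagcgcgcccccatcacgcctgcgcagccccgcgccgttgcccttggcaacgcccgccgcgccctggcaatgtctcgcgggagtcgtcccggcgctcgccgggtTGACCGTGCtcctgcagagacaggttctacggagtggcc
0610009L18Rik (chr11:120348428-120348727, plus strand): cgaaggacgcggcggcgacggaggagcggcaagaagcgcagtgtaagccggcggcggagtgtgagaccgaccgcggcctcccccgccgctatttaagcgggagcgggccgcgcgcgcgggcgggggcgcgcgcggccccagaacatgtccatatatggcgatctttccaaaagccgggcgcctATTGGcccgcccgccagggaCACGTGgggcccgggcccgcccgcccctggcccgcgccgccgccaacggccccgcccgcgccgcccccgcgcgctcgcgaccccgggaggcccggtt
2810468N07Rik (chr17:25570561-25570860, plus strand): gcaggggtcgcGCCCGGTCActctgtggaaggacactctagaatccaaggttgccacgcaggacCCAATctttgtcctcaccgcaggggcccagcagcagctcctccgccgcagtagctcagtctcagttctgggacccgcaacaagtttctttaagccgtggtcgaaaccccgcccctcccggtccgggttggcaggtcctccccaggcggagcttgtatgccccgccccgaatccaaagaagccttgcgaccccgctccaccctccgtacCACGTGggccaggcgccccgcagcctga
Gm36208 (chr10:122792511-122792810, minus strand): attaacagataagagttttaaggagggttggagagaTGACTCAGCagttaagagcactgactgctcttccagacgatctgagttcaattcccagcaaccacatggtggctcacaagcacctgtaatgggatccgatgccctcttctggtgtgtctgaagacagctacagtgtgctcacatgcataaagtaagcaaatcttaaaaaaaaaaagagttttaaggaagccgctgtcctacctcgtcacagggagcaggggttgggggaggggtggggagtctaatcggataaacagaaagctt
RefSeq promoters were matched by symbol for 93 members, of which 87 began within 1 kb of the start in the table. TGACNNNGC was in 21.2% of the 33 windows of members called higher, 13.0% of the 23 called lower and 22.6% of the 31 not called, against 12.5% of all 27025 windows of that length. For TGANTCA these shares were 12.1%, 4.35% and 6.45% against 7.93% of all, and for CACGTG 12.1%, 17.4% and 3.23% against 7.24%. For CCAAT they were 33.3%, 39.1% and 54.8% against 37.9%, and for TATAAA 12.1%, 4.35% and 12.9% against 14.2%. The C/EBP-ATF element TGATGNAA was in 0 of the 33, 0 of the 23 and 0 of the 31 windows and in 4.06% of all. Both strands were searched. The median GC content was 59.7% in the members' windows and 52.7% in all.

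Transcripts that carry small RNAs were described next. Of 7 members with a gene of snoRNA biotype in the table inside their span, 4 were called higher, 0 lower and 3 not called, with a median difference of 1.22. The share called, 57.1%, was below the 69.3% of all genes tested, of which 33.3% were called higher, and 7 members are too few to read a pattern from. Besides 2410006H16Rik these were Epb41l4aos, 1110038B12Rik and Zfas1. Epb41l4aos was at 64, 46.8 and 55.2 FPKM in cyclophosphamide libraries, against 12.2, 14.4 and 12.5 FPKM in untreated libraries (2.07 ± 0.12, adjusted p = 3.7e-06). 1110038B12Rik, the host of Snord52, was at 34.4, 29.5 and 26.7 FPKM in cyclophosphamide libraries, against 9.49, 13.6 and 12 FPKM in untreated libraries (1.37 ± 0.14). Zfas1, the host of Snord12, was at 19.5, 17 and 16 FPKM in cyclophosphamide libraries, against 6.1, 8.0 and 8.36 FPKM in untreated libraries (1.22 ± 0.13). All 4 had every exposed value above every untreated one. Cct6a, whose coding gene makes a chaperonin subunit, AI506816 and Dancr, the host of Snora26, were the 3 without a call. The 1 small RNA inside AI506816 is Mir3096, which carries a microRNA's name although the table gives it the snoRNA biotype. Cct6a was called higher at adjusted p = 0.023 and 0.012 when rescaled by total reads and by the upper quartile. 1110038B12Rik starts within 10 kb after the heat shock gene Hspa1b, which was at 17.3, 5.18 and 10.7 FPKM in cyclophosphamide libraries, against 2.1, 2.19 and 2.17 FPKM in untreated libraries (2.15 ± 0.37).

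MicroRNA genes listed by RefSeq lie inside 3 members on the same strand, which leaves out the Mir3096 entry, and 1 of these was called higher and 2 lower. Mir22hg, the primary transcript of miR-22, was at 9.72, 13 and 11.6 FPKM in cyclophosphamide libraries, against 22.6, 24.1 and 22.9 FPKM in untreated libraries (-1.02 ± 0.10, adjusted p = 6.3e-05). Lncppara, which spans let-7b and let-7c-2, was at 0.81, 1.28 and 1.58 FPKM in cyclophosphamide libraries, against 3.56, 3.76 and 3.16 FPKM in untreated libraries (-1.48 ± 0.22, adjusted p = 0.0005). AL805899.1, which spans miR-31, was at 2.12, 4.26 and 2.93 FPKM in cyclophosphamide libraries, against 1.13, 0.949 and 0.708 FPKM in untreated libraries (1.61 ± 0.26, adjusted p = 0.00082). The groups did not overlap for any of the 3. Over all genes tested 69.3% were called and 73.4% did not overlap, and 3 members are too few to read a pattern from. A further 3 members lie within 2 kb of a microRNA gene on their strand. C430049B03Rik, on the X chromosome beside miR-322, miR-503 and miR-351, was at 7.17, 4.09 and 4.67 FPKM in cyclophosphamide libraries, against 20.6, 23.2 and 26.7 FPKM in untreated libraries. It had the largest fall of these 6 (-2.16 ± 0.20, adjusted p = 3.4e-05). Gm53, beside miR-196a-1 in the Hoxb region, had a difference of -0.39 ± 0.13 (adjusted p = 0.03), and Gm26532, beside miR-23a, miR-27a and miR-24-2, was at 5.46, 6.55 and 6.38 FPKM in cyclophosphamide libraries, against 3.9, 3.57 and 3.26 FPKM in untreated libraries (0.76 ± 0.11). The mature sequences that these transcripts carry or adjoin are given from RefSeq, in build GRCm38.p6, with the seed (bases 2 to 8) in capitals, first for members that fell and then for those that rose.
miR-22-3p (Mir22hg, chr11:75463772-75463793, plus strand): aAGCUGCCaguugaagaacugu
let-7b-5p (Lncppara, chr15:85707325-85707346, plus strand): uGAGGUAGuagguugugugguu
let-7c-5p (Lncppara, chr15:85706616-85706637, plus strand): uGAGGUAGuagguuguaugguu
miR-322-5p (C430049B03Rik, chrX:53054306-53054327, minus strand): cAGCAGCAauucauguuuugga
miR-503-5p (C430049B03Rik, chrX:53054027-53054049, minus strand): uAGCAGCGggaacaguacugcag
miR-31-5p (AL805899.1, chr4:88910614-88910635, minus strand): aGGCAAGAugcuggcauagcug
miR-23a-3p (Gm26532, chr8:84208563-84208583, plus strand): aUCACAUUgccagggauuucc
miR-27a-3p (Gm26532, chr8:84208727-84208747, plus strand): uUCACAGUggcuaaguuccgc
miR-24-3p (Gm26532, chr8:84208875-84208896, plus strand): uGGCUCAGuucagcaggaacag
The let-7 pair share the seed GAGGUAG. The seeds of miR-322-5p and miR-503-5p begin with the same 6 bases and differ in the last. These libraries hold longer polyadenylated RNA, so the mature microRNAs themselves were not measured. Of 10 genes of microRNA processing, 5 were higher and 2 lower, with a median difference of 0.28. The count called was near the 69.3% of all genes tested (33.3% higher and 36% lower). Dgcr8, the RNA-binding partner of Drosha, was at 1.77, 2.18 and 2.41 FPKM in cyclophosphamide libraries, against 7.5, 7.65 and 7.6 FPKM in untreated libraries, the largest change of the list (-1.80 ± 0.12). Drosha fell as well (-0.28 ± 0.07), and Ago2, which loads mature microRNAs, rose (1.06 ± 0.07).

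The nuclear exosome and its adaptors, which degrade many unstable noncoding transcripts, were higher nearly throughout. Of 19 tested genes, 16 were higher and 1 lower, with a median difference of 0.54 against -0.02 over all genes tested. Of all genes tested, 33.3% were called higher and 36% lower. Papd5, the poly(A) polymerase that marks RNA for the exosome, was at 39.3, 38 and 40.6 FPKM in cyclophosphamide libraries, against 12.1, 11 and 11.4 FPKM in untreated libraries (1.76 ± 0.06), and Zcchc7 of the same complex had 1.13 ± 0.11. Of the exosome core, Exosc7 rose by 0.78 ± 0.09 and the nuclease Exosc10 by 0.34 ± 0.06. Xrn2, a 5′ to 3′ nuclease on this list that is not part of the exosome, was the gene that fell (-0.25 ± 0.06). Exosc6 was listed at 0 in all 6 libraries. Of 10 genes of nonsense-mediated decay, 6 were higher and 1 lower, with a median of 0.33. The fall was that of the endonuclease Smg6, at 2.97, 3.68 and 3.03 FPKM in cyclophosphamide libraries, against 6.21, 6.66 and 6.92 FPKM in untreated libraries (-1.01 ± 0.11). Of 14 Integrator genes, 6 were higher and 3 lower, with a median of 0.18. The counts called for nonsense-mediated decay and Integrator were near the 69.3% of all genes tested.

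**Figure D5:**
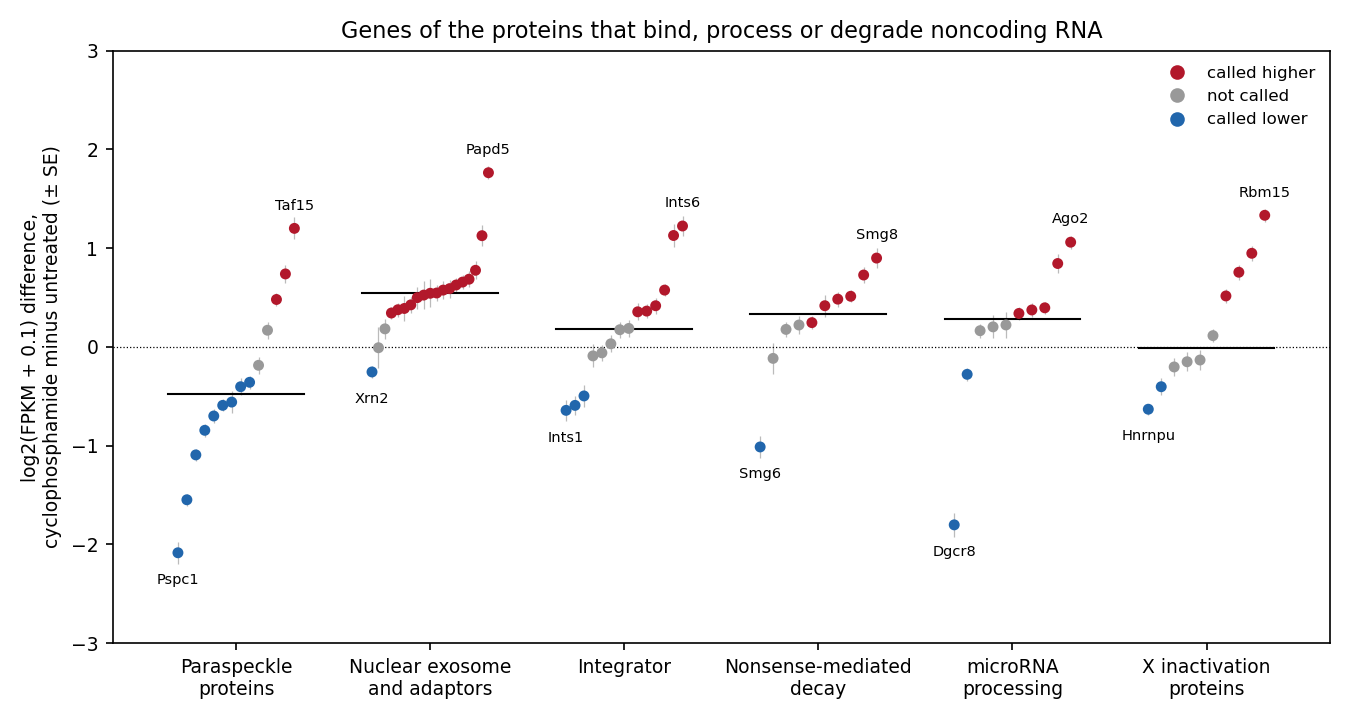
Differences between cyclophosphamide and untreated libraries on the log2(FPKM + 0.1) scale, with bars of 1 SE, for genes of 6 groups that bind, process or degrade noncoding RNA; red points are called higher, grey not called and blue lower, and a black line marks each group's median. The genes on the exosome list lie above 0 except Xrn2, a nuclease apart from the exosome, which is called lower, and Pabpn1, which is at -0.01 and not called. Of 14 paraspeckle genes, 9 are called lower.

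By position, 19 of 47 intergenic members were called higher and 14 lower, and 9 and 11 of 28 divergent members. Of 17 downstream members 9 were called higher and 4 lower, of 79 that overlap a coding gene on the other strand 25 and 21, and of 11 that overlap one on the same strand 3 and 4. The share called ran between 58.2% and 76.5% over these 5 classes, around the 69.3% of all genes tested (33.3% higher and 36% lower), so that the counts set no class apart. Within the classes, Gm17501, divergent to Cyr61, was at 1.28, 1.65 and 1.2 FPKM in cyclophosphamide libraries, against 4.91, 6.27 and 5.97 FPKM in untreated libraries. It fell (-1.98 ± 0.16), while Cyr61, a matricellular gene, had no call. Gm13375, divergent to Arhgap21, fell by 1.75 on this scale (adjusted p = 9.5e-06), and Arhgap21 fell as well (-0.28 ± 0.07). Brip1os, whose span overlaps Ints2 on the other strand, was at 3.01, 3.66 and 3.19 FPKM in cyclophosphamide libraries, against 10.1, 9.96 and 10.6 FPKM in untreated libraries (-1.61 ± 0.10). Ints2 had no call. Gm28151 rose inside Slc39a10 on the same strand (1.58 ± 0.20), and Slc39a10 rose as well (0.58 ± 0.15). Gm38399 fell inside Nav1 (-1.44 ± 0.33), and so did Nav1 (-1.82 ± 0.11). The part of Slc39a10 and Nav1 reads in these members' values was not tested. 4933404O12Rik rose downstream of Ift22 (1.05 ± 0.11), while Ift22 fell (-0.38 ± 0.12). Tmem250-ps, an intergenic member, was at 37.2, 36.4 and 33.6 FPKM in cyclophosphamide libraries, against 9.93, 13.4 and 11.9 FPKM in untreated libraries and rose (1.61 ± 0.11), as did 5430416N02Rik (1.57 ± 0.12). Of 65 members that share exon bases with a coding gene, 18 were called higher and 19 lower, and of 117 that share none, 47 were called higher and 35 lower, or 56.9% of those that share exon bases and 70.1% of those that do not.

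RefSeq had an entry under the same symbol for 111 members, and for 18 of these it does not list a noncoding RNA gene: 14 are protein-coding and 4 pseudogenes there. The coding ones include Cct6a, Ifi30, which makes a lysosomal thiol reductase, Zfp469 and Tmem250-ps, and the part that coding transcripts have in their reads was not tested. Of the 14, 4 were called higher and 4 lower, or 57.1%, beside the 69.3% of all genes tested (33.3% higher and 36% lower). Ifi30 was at 61.5, 61.8 and 55.7 FPKM in cyclophosphamide libraries, against 41.8, 38.5 and 44.9 FPKM in untreated libraries (0.52 ± 0.08). Without all 18, 164 members remained, with 61 called higher and 48 lower, or 66.5%, a comparison chosen after seeing the data.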

How the data were processed

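Polyadenylated RNA of 6 libraries, 3 of cyclophosphamide-exposed and 3 of untreated granulosa cells, was selected with oligo-dT beads and copied from random hexamers, per the labels' protocols. CASAVA and HISAT2 2.0.5 with the build GRCm39 are named by the submitters' processing notes. No source used here names the counter or the annotation, although 98.3% of the table's shared gene IDs carry GENCODE M21 coordinates (build GRCm38), and coordinates are printed in that build. The table calls itself raw counts, but the authors deposited FPKM, scaled by gene length and library size. Multiplied by gene length, 100% of the values were whole multiples of 1 read within 0.01 of a read, which recovers the reads per gene.

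Genes were kept where 3 or more libraries had what amounts to 10 reads and the 6 libraries held 15 together, and were tested with limma 3.58.1 (R 4.3.3) on log2(FPKM + 0.1) with a trended variance and no covariates, cyclophosphamide against untreated, and p-values were adjusted by Benjamini-Hochberg over all 14755 genes. A pseudocount understates changes of low genes. Classes of position and partners came from gene spans in the table. On simulated data of 14755 genes for this comparison, 40.3% of 1.5-fold, 88.1% of 2-fold and 100% of 4-fold changes were recovered. The simulation changed 67, 67 and 66 genes by these folds, with the same spread set for every gene, and gave 12 false calls. Far more genes were called in these data, so the shares do not give the recovery here.

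Named members are the well studied long noncoding RNAs among the members, the 10 with the highest mean, the 12 largest rises and 12 largest falls among called members whose groups did not overlap, and the 2 called members with the smallest p in each class. Others were named for their partner or small RNA after their values were seen. The members and lists were chosen with earlier results of these data known. Alternatives covered pseudocounts of 0.5 and 1, filters, scalings, limma-voom on the recovered reads, a replicate block, each library left out, and other thresholds for members.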

Additional observations from a re-analysis of the deposited data

How the results depend on the processing

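With each library left out in turn, 58 to 67 members were called higher, 50 to 56 lower and 109 to 120 in all. Xist, not called in any of these fits, ranged between -0.21 and 0.072, and Gm10076 between -1.59 and 0.051, changing sign without untreated replicate 2 and called lower at -1.59 without untreated replicate 3 (adjusted p = 0.023 in limma). Raising the mean for members to 5 FPKM left 57, with 20 called higher, 21 lower and 41 in all, and lowering it to 1 FPKM gave 295, with 107 higher, 75 lower and 182 in all. The 92 members whose span overlaps no coding gene had 37 higher, 29 lower and 66 in all. The 117 that share no exon base with a coding gene, an alternative chosen after seeing the data, had 47 higher, 35 lower and 82 in all. These counts fall with the number of members kept. The shares called were 71.9% of the 57, 61.7% of the 295, 71.7% of the 92 and 70.1% of the 117. Over all genes tested 69.3% were called. Pairs called in opposite directions were 7 under upper quartile scaling, against 12, and the cause was not tested. That scaling moved the median of all genes by 0.09, and called 73 members higher and 48 lower. With a pseudocount of 1 FPKM, differences shrank by over 1.5 times, all still called, for Gm17322 (-1.95), Scarletltr (-1.76), Emx2os (-1.71), A530020G20Rik (-1.61), Gm36208 (1.38) and Gm26724 (1.34). Of 763 values of named members under the alternatives, 750 kept their direction and their side of the threshold, 5 lost the call, all for Malat1, 5 gained it and 3 changed sign, for Xist and Gm10076.

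Replicate numbers did not pair the libraries: the correlations of same-numbered libraries' deviations were -0.077, 0.0073 and -0.023. With the number as a block, 63 members were called higher, 56 lower and 119 in all, and Malat1 had an adjusted p of 0.054 in limma. In data simulated for all 14755 genes tested, 40.3% of 1.5-fold, 88.06% of 2-fold and 100% of 4-fold changes were recovered. The simulation changed far fewer genes than were called in these data and set the same spread for every gene. Its shares therefore do not give the recovery in these data. Recovery was not split by read count, and the members had a median of 581.5 reads over the 6 libraries.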

Other observations

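Spearman's rho was -0.12 between mean FPKM and the signed difference and -0.10 between the gene's span and the signed difference, given as a description across 182 genes of the same 6 libraries. It does not bear on the size of the changes, since the members moved in both directions. Of the 30 members at a mean of 10 FPKM or more, 11 were called higher and 10 lower, and of the 125 between 2 and 5 FPKM, 45 were called higher and 33 lower. The shares called were 70% and 62.4%, beside the 69.3% of all genes tested. The 26 members with 1 exon block had 13 called higher and 5 lower, against 52 and 49 of the 156 with more. The shares called were 69.2% with 1 exon block and 64.7% with more, near the 69.3% of all genes tested (33.3% higher and 36% lower). The 4 members that span 100 kb or more had 1 called higher, Pvt1, and 2 lower, among them Brip1os. On the X chromosome 6 members were expressed: Gm26617 and G530011O06Rik were called higher, Firre and C430049B03Rik lower, and Xist and Gm15247 were not called.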
